A study of Mus musculus with 6 samples.

Results

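The Fc gamma receptor system was followed through 9 genes, chosen by name and found as 9 of the 17191 gene rows in the deposited tables. They are the IgG receptors Fcgr1, Fcgr3, Fcgr4 and Fcgr2b, the signalling adaptors Fcer1g and Tyrobp, the kinases Syk and Lyn, and the phosphatase Inpp5d. The RNA came from cells of subcutaneous CT26 tumours, a mouse colorectal carcinoma line, in female BALB/c mice aged 6 to 8 weeks that entered treatment at tumour volumes of 100 to 200 mm3. The TP-18 group (3 libraries) received TP-18, known here only by that code name, by mouth at 50 mg/kg each day for 3 weeks, and the vehicle group (3 libraries) received vehicle over the same time. Every mouse in the 2 groups carried the CT26 tumour, and no label says that each library came from a separate animal, so the p-values measure the spread between these libraries, which may be partly technical. The labels differ on which cells were collected. The design text names CD11b+F4/80+CD206+ macrophages sorted by flow cytometry, the treatment protocol names magnetic selection of CD11b+ cells, and the characteristics name the CT26 line.

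Fc gamma receptors bind the constant part of IgG and let macrophages take up antibody-coated cells and particles. Fcgr1, Fcgr3 and Fcgr4 are activating: they signal through the common gamma chain encoded by Fcer1g, whose cytoplasmic ITAM (immunoreceptor tyrosine-based activation motif) is phosphorylated by Src family kinases such as LYN and then recruits the kinase SYK. Tyrobp encodes DAP12, an ITAM adaptor that serves TREM family and other myeloid receptors. Fcgr2b encodes the inhibitory receptor, whose ITIM (immunoreceptor tyrosine-based inhibition motif) recruits the lipid phosphatase SHIP1, the product of Inpp5d. The balance of activating receptors against Fcgr2b is widely used to describe how readily a macrophage responds to IgG.

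The motifs are shown as coding sequence of the reference genome (GRCm38, strain C57BL/6J, transcripts of GENCODE M21), because they are what sets the adaptors and the inhibitory receptor apart. The tyrosine codons are in capitals.
Fcer1g ITAM: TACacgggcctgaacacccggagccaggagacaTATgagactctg
Tyrobp ITAM: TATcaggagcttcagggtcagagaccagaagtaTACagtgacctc
Fcgr2b ITIM: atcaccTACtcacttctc
The ITAM of Fcer1g lies in exons 4 and 5 on the minus strand (chr1:171229889-171230072, with an intron between), that of Tyrobp in exons 4 and 5 on the plus strand (chr7:30415670-30417382, with an intron between), and the ITIM of Fcgr2b in exon 10 on the minus strand (chr1:170961071-170961088). The ITAM pattern searched in the translated codons was a tyrosine with leucine or isoleucine 3 residues on, repeated after a gap of 6 to 8 residues, and the ITIM pattern was a tyrosine with leucine, isoleucine or valine 3 residues on and isoleucine, valine, leucine or serine shortly before it. Among the coding sequences of the 9 genes, the ITAM pattern was found in Fcer1g and Tyrobp, against 2.85% of 21570 coding sequences in the genome. The ITIM pattern is loose and was found in 48.9% of them, so its other matches among the 9 genes, 3 in Fcgr1, 2 in Lyn and 1 each in Fcgr4, Fcer1g and Tyrobp, describe letters only.

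On GRCm38 the genes Fcgr2b (Entrez 14130, 170958617 to 170976547), Fcgr4 (246256, 171018920 to 171029761), Fcgr3 (14131, 171051174 to 171064935) and Fcer1g (14127, 171229572 to 171234365) lie within 275.7 kb of chromosome 1. Inpp5d (16331) is elsewhere on chromosome 1 at 87620312 to 87720507, Fcgr1 (14129) on chromosome 3 at 96282909 to 96293969 and Tyrobp (22177) on chromosome 7 at 30413760 to 30417585. Syk (20963) is on chromosome 13 at 52583173 to 52648792 and Lyn (17096) on chromosome 4 at 3678115 to 3813122. All 9 are annotated as protein-coding. Exons of Fcgr2b overlap the antisense gene Gm38204 over 155 bases and those of Lyn overlap Gm26857 over 248 bases, and since the sources used here do not say whether counting used strand, reads from these stretches cannot be told apart.

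The activating Fcgr3 and the inhibitory Fcgr2b are near copies in the part that binds IgG, which bears on how well their counts can be separated. Their coding sequences were 86.7% identical over the aligned bases, while the other pairs of receptors were 64.1% to 68.6% identical. The longest stretch that they share without a difference has 129 bases and is shown because reads from it could come from either gene.
Fcgr2b and Fcgr3: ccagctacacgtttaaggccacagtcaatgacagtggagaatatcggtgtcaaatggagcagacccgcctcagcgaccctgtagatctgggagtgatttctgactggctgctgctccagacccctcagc
It lies in exons 5 and 6 of Fcgr2b (chr1:170966674-170968081, minus strand) and exons 3 and 4 of Fcgr3 (chr1:171054167-171057792, minus strand). Of the 50-base windows in the coding sequence of Fcgr2b, 17.1% also occurred in Fcgr3, and of the 100-base windows 4.78% did. Seen from Fcgr3 the shares were 22.1% and 6.27%, and no 50-base window of Fcgr1 or Fcgr4 occurred in another of the 4 receptors. The sources used here do not give the read length or the treatment of reads with several matches, so the counts of Fcgr2b and Fcgr3 are uncertain by the reads in these windows.

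The libraries held 16371128 to 17597645 counts on 14690 to 15424 genes, and 12721 genes with enough counts were tested. In these cells macrophage genes were abundant: C1qa, a complement gene of macrophages, had 984 ± 316 CPM (counts scaled to a common library size with TMM factors) in TP-18 and 1225 ± 659 CPM in vehicle libraries (SD, n = 3 each). The 11 macrophage markers, Fcgr1 among them, summed to 4492 to 6753 CPM in TP-18 and 3968 to 8389 CPM in vehicle libraries. Among other cells that carry Fc receptors, the monocyte list summed to 180.0 to 528 CPM in TP-18 and 124 to 1024 CPM in vehicle libraries, with its highest sums in TP-18 2 and vehicle 2, where Chil3 alone had 323 and 758 CPM. The neutrophil list summed to 80.2 to 185 CPM in TP-18 and 72.4 to 262 CPM in vehicle libraries. The part of either in the values of the 9 genes was not tested. The B cell and plasma cell list summed to 2.77 to 8.95 CPM in TP-18 and 1.38 to 3.93 CPM in vehicle libraries, and the NK cell list to 14.8 to 23.3 CPM in TP-18 and 11.1 to 31.6 CPM in vehicle libraries. Ncr1, a defining marker of NK cells, reached at most 6 counts in a library. Krt20, an epithelial keratin, had 415 ± 152 CPM in TP-18 and 436 ± 92.1 CPM in vehicle libraries. It was not typical of the CT26 and epithelial list. Krt8, Krt18, Krt19, Epcam and Cldn4 reached at most 25, 111, 1, 17 and 6 counts in a library, against 9338 for Krt20. Sox9, also on that list, had 44.9 ± 3.07 CPM in TP-18 and 149.8 ± 16.2 CPM in vehicle libraries (edgeR adjusted p = 0.0137). The share of tumour cells was not tested. TMM scaling matters for direction: the median log2 fold change of all tested genes was 0.02 with it and 0.20 with library totals.

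All 9 genes were expressed in all 6 libraries, and 0 of the 9 passed the edgeR quasi-likelihood test of TP-18 against vehicle at an adjusted p of 0.05, where 0.110% of all tested genes passed (0.0236% higher and 0.0865% lower). DESeq2 also called 0 of the 9, and 1 of the 9, Syk, had an unadjusted edgeR p under 0.05, against 16.3% of all tested genes. The groups did not overlap in 1 of the 9 genes, again Syk, or 11.1%, against 23.3% of all tested genes. Log2 fold changes were negative in 6 genes and positive in 3, with a median of -0.09 beside 0.02 over all tested genes. In RNA from a cell population, fewer cells of a type and less RNA per cell cannot be told apart.

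**Figure D1:**
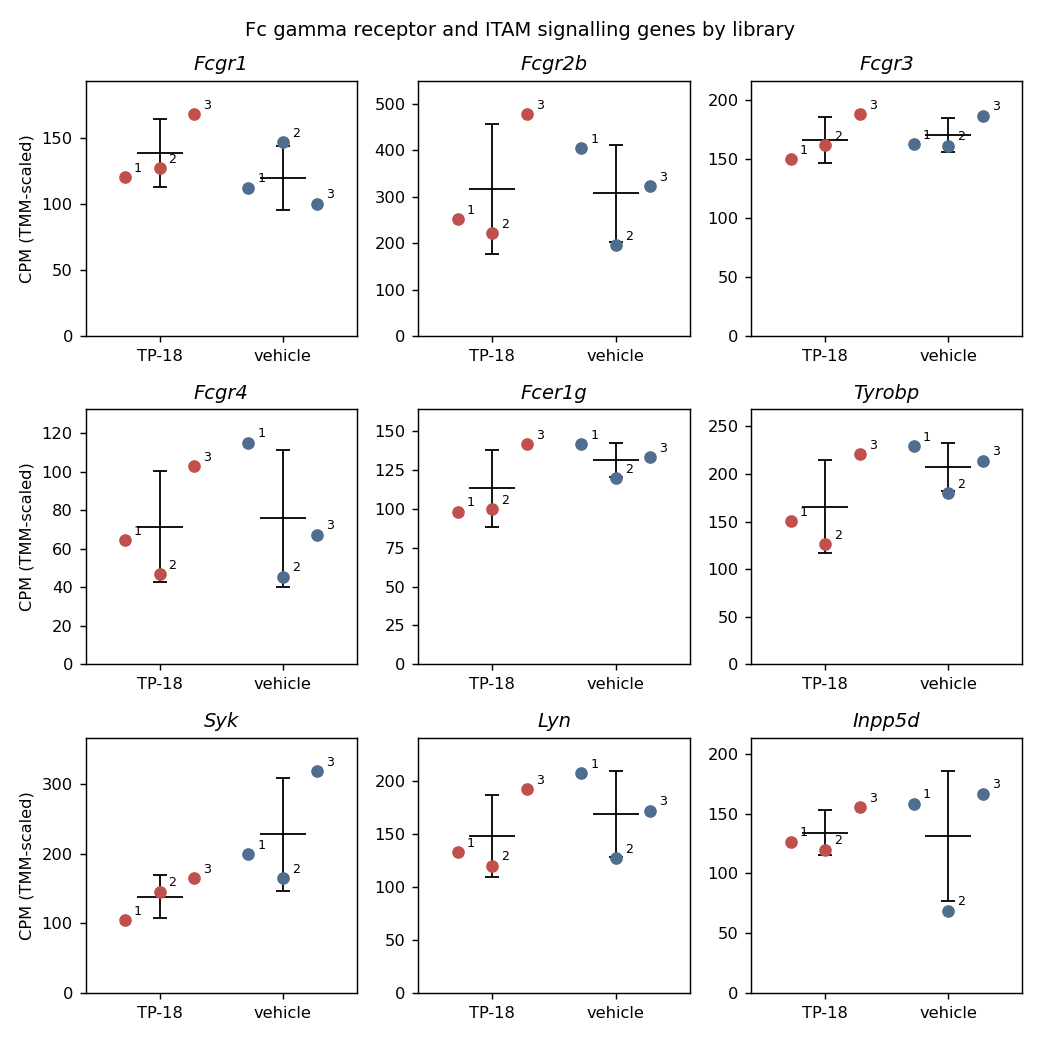
TMM-scaled CPM (y axis, from 0) of each of the 9 genes in the TP-18 and vehicle libraries; points are libraries with their replicate numbers, the horizontal line is the mean and the bar 1 SD (n = 3). In 8 of the 9 genes the groups overlap, and in Syk the highest TP-18 library, at 164.4 CPM, sits just under the lowest vehicle library, at 164.6 CPM.

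Per length of transcript, Tyrobp and the pair Fcgr2b and Fcer1g were the most abundant. In deposited FPKM (counts scaled for library total and gene length), Tyrobp had 306 ± 92.1 in TP-18 and 340 ± 45.6 in vehicle libraries (SD, n = 3 each). Fcgr2b had 218 ± 97.5 FPKM in TP-18 and 188 ± 66.6 FPKM in vehicle libraries, and Fcer1g had 183 ± 40.6 FPKM in TP-18 and 188 ± 18.4 FPKM in vehicle libraries. These 2 did not differ beyond their spread, with 118 to 330.3 FPKM for Fcgr2b and 157 to 229.5 FPKM for Fcer1g over the 6 libraries. Next came the activating receptors, whose ranges overlapped each other: 54.8 to 73.0 FPKM for Fcgr3, 34.1 to 88.5 FPKM for Fcgr4 and 35.9 to 69.5 FPKM for Fcgr1. The kinases and the phosphatase had the lowest means per length, with 24.1 to 41.6 FPKM for Lyn, 12.4 to 32.1 FPKM for Inpp5d and 10.1 to 27.0 FPKM for Syk, with overlapping ranges. By mean FPKM over all 6 libraries, Tyrobp stood above 98.9% of the genes in the table and Syk above 78.0%.

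This order depends on the length assigned to each gene. The FPKM values imply a length of 2751 bases for Fcgr3 and 10889 bases for Syk, which are 2.04 and 2.03 times their principal M21 transcripts of 1347 and 5363 bases, and 4934 bases for Lyn, 1.46 times its transcript of 3387 bases. For the other 6 genes the ratio was 0.976 to 1.05. With the M21 lengths the mean level of Fcgr3 over the 6 libraries was 125 FPKM in place of 61.2, and Syk and Inpp5d changed places at 33.6 and 26.9 FPKM. A comparison of the groups within a gene does not depend on its length.

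None of the activating receptors passed the test. Fcgr1, the high-affinity receptor, had 121, 127 and 168 CPM in TP-18 1, 2 and 3, against 113, 147 and 101 CPM in vehicle 1, 2 and 3. The highest value was in TP-18 3 and the lowest in vehicle 3, and the groups overlapped because vehicle 2 exceeded TP-18 1 and 2. TP-18 over vehicle, the log2 fold change was 0.21 ± 0.20 (SE; 95% interval -0.25 to 0.66), with an edgeR adjusted p = 0.625.

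Fcgr3, a low-affinity receptor of macrophages, other myeloid cells and NK cells, was the steadiest of the 9. It had 149.7, 162 and 188 CPM in TP-18 1, 2 and 3, against 163, 161 and 187 CPM in vehicle 1, 2 and 3. The libraries of the groups were interleaved and the highest was 1.26 times the lowest. Its log2 fold change of -0.03 ± 0.14 had the narrowest interval of the 9 genes, -0.36 to 0.30 (edgeR adjusted p = 0.930), and its sign was positive with library totals as scaling (0.15).

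Fcgr4, which binds IgG2a and IgG2b in mice, varied far more within the groups. It had 64.5, 46.9 and 103 CPM in TP-18 1, 2 and 3, against 115, 45.6 and 67.2 CPM in vehicle 1, 2 and 3. Within each group 1 library, TP-18 3 and vehicle 1, stood well above the other two, and the highest library was 2.52 times the lowest. The log2 fold change was -0.09 ± 0.38, with an interval of -0.98 to 0.80 (edgeR adjusted p = 0.928), and it was 0.08 with library totals as scaling. An interval this wide does not show that the groups are alike.

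The inhibitory receptor Fcgr2b followed the same libraries as Fcgr4. It had 252, 221 and 478 CPM in TP-18 1, 2 and 3, against 404, 196 and 323 CPM in vehicle 1, 2 and 3. TP-18 3 and vehicle 1 were again highest and TP-18 2 and vehicle 2 lowest, so that the spread within the groups, 140.1 CPM (SD) in TP-18 and 105 CPM in vehicle libraries, exceeded the difference between the means of 317 CPM in TP-18 and 308 CPM in vehicle libraries. The log2 fold change was 0.04 ± 0.35 (95% interval -0.78 to 0.86, edgeR adjusted p = 0.965). It turned to -0.38 without TP-18 3 and to -0.21 without vehicle 2, so its sign rests on single libraries. The summed macrophage markers were also lower in TP-18 2 (4492 CPM) and vehicle 2 (3968 CPM) than in the other 4 libraries (5446 to 8389 CPM). The complement genes weighed much in this sum, with C1qa at 633 CPM in TP-18 2 and 468 CPM in vehicle 2. Single markers differed: in TP-18 2, Adgre1 and Csf1r were the lowest of the TP-18 libraries, but Mertk (144 CPM) and Mrc1 (898 CPM) the highest. The neutrophil and monocyte lists were highest in TP-18 2 and vehicle 2. Chil3 made up most of the monocyte sum there, while Ccr2, on the same list, was highest in TP-18 3 (112 CPM). The part of these cells in the values of Fcgr2b and Fcgr4 was not tested.

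**Figure D2:**
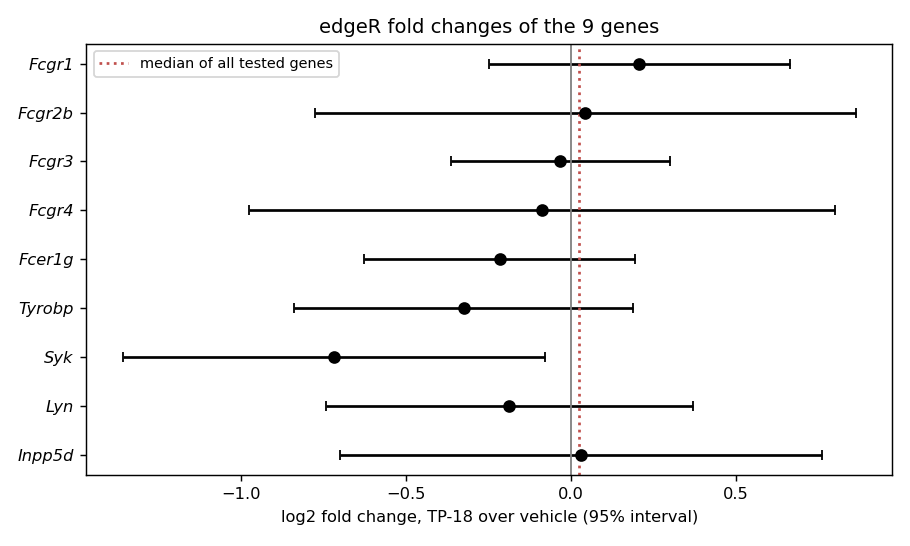
Log2 fold change of TP-18 over vehicle for the 9 genes (x axis), with 95% intervals from the edgeR fit; the dotted line is the median of all tested genes at 0.02. The intervals of 8 genes include 0, and that of Syk runs from -1.36 to -0.08.

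The ratio of Fcgr4 to Fcgr2b within a library spanned a narrower range than either gene. Fcgr4 relative to Fcgr2b, in FPKM, was 0.317, 0.262 and 0.266 in TP-18 1, 2 and 3, against 0.352, 0.288 and 0.257 in vehicle 1, 2 and 3. The largest ratio was 1.37 times the smallest, although Fcgr2b itself varied 2.44-fold and Fcgr4 2.52-fold in CPM. The ratio of Fcgr1 to Fcgr2b varied 2.69-fold and that of Fcgr3 to Fcgr2b 2.09-fold.

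The summed activating receptors relative to Fcgr2b did not separate the groups. This ratio was 0.936, 1.02 and 0.698 in TP-18 1, 2 and 3, against 0.745, 1.199 and 0.768 in vehicle 1, 2 and 3, with means of 0.884 ± 0.166 in TP-18 and 0.904 ± 0.256 in vehicle libraries (SD, n = 3 each). Ratios over several members were not tested. With M21 lengths, chosen after seeing the data, the means were 1.24 ± 0.270 in TP-18 and 1.28 ± 0.381 in vehicle libraries, since Fcgr3 then weighs more.

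**Figure D3:**
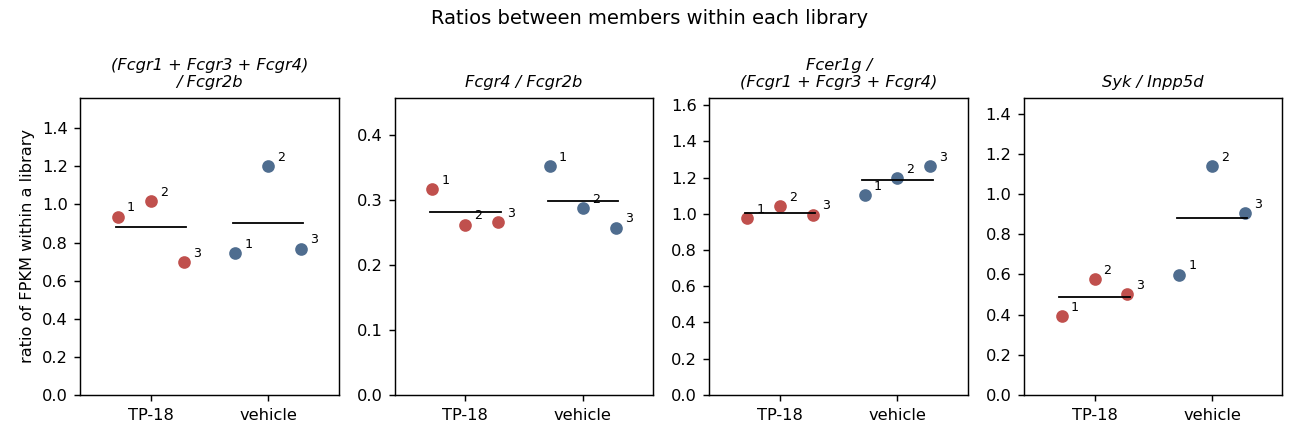
Ratios of deposited FPKM between members within each library (y axes, from 0); points are libraries with replicate numbers and lines are group means (n = 3). The ratio of activating receptors to Fcgr2b overlaps between TP-18 and vehicle libraries. Fcer1g relative to the activating receptors, at 0.976 to 1.04 in TP-18 and 1.10 to 1.26 in vehicle libraries, does not overlap. Syk relative to Inpp5d, at 0.392 to 0.575 in TP-18 and 0.598 to 1.14 in vehicle libraries, does not overlap either. Both non-overlapping ratios were chosen among several after their values were seen and have no test. Among single genes, 23.3% of all tested genes did not overlap.

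The ITAM adaptors had lower means in TP-18 libraries, without passing the test. Fcer1g, the common gamma chain, had 98.1, 99.7 and 141 CPM in TP-18 1, 2 and 3, against 141, 119.6 and 133 CPM in vehicle 1, 2 and 3. TP-18 1 and 2 lay below all vehicle libraries, and TP-18 3 lay level with the highest. The log2 fold change was -0.22 ± 0.18 (95% interval -0.63 to 0.19, edgeR adjusted p = 0.571).

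Tyrobp had 151, 126 and 220.5 CPM in TP-18 1, 2 and 3, against 229, 179.7 and 214 CPM in vehicle 1, 2 and 3. The pattern was that of Fcer1g, with TP-18 1 and 2 lowest and TP-18 3 among the vehicle values. For Tyrobp the log2 fold change was -0.33 ± 0.22 (95% interval -0.84 to 0.19, edgeR adjusted p = 0.498). Without TP-18 3 it was -0.59, with an edgeR adjusted p = 0.335. Leaving out TP-18 3 moved Fcer1g in the same direction, to -0.41 (edgeR adjusted p = 0.394). Leaving out vehicle 2 also made both changes larger, with Tyrobp at -0.43 and Fcer1g at -0.29. Some other settings made both smaller. Without TP-18 2, Tyrobp was at -0.16 and Fcer1g at -0.13, and with library totals they were at -0.15 and -0.04.

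These adaptors were the most alike pair among the 9 genes: after centring each gene on its own mean, their log2 CPM differed by 0.09 on average over the 6 libraries. Of all tested genes, the pattern nearest to Fcer1g belonged to Irf5 (0.04), Bcl2a1b (0.05) and Gmppb (0.06), and that nearest to Tyrobp to Spata5 (0.05), Lcp2 (0.07) and Sh3bp2 (0.07). Lcp2 and Sh3bp2 encode adaptor proteins on the fixed list of effectors downstream of SYK. The median over all tested genes was 0.30 for Fcer1g and 0.36 for Tyrobp. With 6 libraries and 12721 tested genes, some close matches always occur, and these are given as a description.

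Relative to the receptors it serves, Fcer1g was lower in TP-18 libraries. In FPKM its ratio to the sum of Fcgr1, Fcgr3 and Fcgr4 was 0.976, 1.04 and 0.996 in TP-18 1, 2 and 3, against 1.10, 1.195 and 1.26 in vehicle 1, 2 and 3, and the groups did not overlap. This ratio was chosen among several after its values were seen and has no test. Of the other ratios examined, only that of Syk to Inpp5d did not overlap. Among single genes, 23.3% of all tested genes did not overlap.

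Syk, the kinase that binds phosphorylated ITAMs, had the smallest p of the 9 genes. It had 105, 145 and 164.4 CPM in TP-18 1, 2 and 3, against 199, 164.6 and 318 CPM in vehicle 1, 2 and 3, with means of 138 ± 30.6 CPM in TP-18 and 227 ± 80.6 CPM in vehicle libraries (SD, n = 3 each). Every TP-18 library lay below every vehicle library, but TP-18 3 and vehicle 2 were nearly level, and in deposited FPKM, which uses library totals, TP-18 3 (16.1) exceeded vehicle 2 (14.1). The log2 fold change was -0.72 ± 0.28 (95% interval -1.36 to -0.08), with an unadjusted p = 0.0320 and an edgeR adjusted p = 0.266. Its size rests in part on vehicle 3: without that library it was -0.41 (edgeR adjusted p = 0.455). DESeq2 gave -0.73 with an adjusted p = 0.133.

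Lyn, the Src family kinase that phosphorylates ITAMs and ITIMs, was high in the same libraries as Fcgr2b and Fcgr4. It had 133, 120.2 and 192 CPM in TP-18 1, 2 and 3, against 208, 127 and 172 CPM in vehicle 1, 2 and 3. Within each group TP-18 3 and vehicle 1 were highest, and the groups overlapped. For Lyn the log2 fold change was -0.19 ± 0.24 (95% interval -0.74 to 0.37, edgeR adjusted p = 0.726).

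Inpp5d, the SHIP1 phosphatase downstream of Fcgr2b, was set apart by a single library. It had 127, 119.8 and 155 CPM in TP-18 1, 2 and 3, against 158, 68.6 and 167 CPM in vehicle 1, 2 and 3. Vehicle 2 lay below all other libraries, which held 119.8 to 167 CPM. For Inpp5d the log2 fold change was 0.03 ± 0.31 (95% interval -0.70 to 0.76, edgeR adjusted p = 0.974), and without vehicle 2 it was -0.29 (edgeR adjusted p = 0.451). The ratio of Syk to Inpp5d was chosen among several after its values were seen and has no test. In FPKM it was 0.392, 0.575 and 0.502 in TP-18 1, 2 and 3, against 0.598, 1.14 and 0.906 in vehicle 1, 2 and 3. TP-18 2 and vehicle 1 lay close together, and the highest ratio was in vehicle 2, where Inpp5d was lowest.

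Promoter sequence was available for 7 of the 9 genes, in 9 windows from 250 bases before to 50 bases after the annotated start (RefSeq, GRCm38.p6). The windows of Fcgr2b and Fcgr4, which varied together, and of Fcgr1, which did not follow them, are shown in the direction of transcription. Capitals mark the letters GAGGAA, a core bound by the myeloid factor PU.1, on either strand.
Fcgr2b, chr1:170976022-170976321, minus strand: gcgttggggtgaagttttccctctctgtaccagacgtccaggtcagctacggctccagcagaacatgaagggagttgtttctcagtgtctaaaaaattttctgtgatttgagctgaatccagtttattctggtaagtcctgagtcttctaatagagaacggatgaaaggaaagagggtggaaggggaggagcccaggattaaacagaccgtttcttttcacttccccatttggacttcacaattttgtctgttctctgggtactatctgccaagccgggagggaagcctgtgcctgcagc
Fcgr4, chr1:171018676-171018975, plus strand: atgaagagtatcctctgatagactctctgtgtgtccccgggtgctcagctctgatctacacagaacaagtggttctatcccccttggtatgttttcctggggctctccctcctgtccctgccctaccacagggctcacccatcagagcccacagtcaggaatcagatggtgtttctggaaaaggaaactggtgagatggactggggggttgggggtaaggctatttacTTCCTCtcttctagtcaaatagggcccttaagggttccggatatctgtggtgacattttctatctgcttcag
Fcgr1, chr3:96293920-96294219, minus strand: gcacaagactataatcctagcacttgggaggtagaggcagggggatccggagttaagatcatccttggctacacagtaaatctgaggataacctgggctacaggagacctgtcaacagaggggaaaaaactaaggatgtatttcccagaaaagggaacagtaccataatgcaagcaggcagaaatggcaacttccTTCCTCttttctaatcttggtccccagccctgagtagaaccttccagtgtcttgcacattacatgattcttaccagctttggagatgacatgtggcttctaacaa
GAGGAA was found in 6 of the 9 windows, of Fcgr1, Fcgr3 (both windows, which overlap), Fcgr4, Inpp5d and Syk (1 of 2 windows), against 28.3% of 32851 promoter windows. The matches describe these letters in this window and not a bound site.

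Around the 9 genes, 147 further genes of the pathway were listed in 7 groups, of which 132 were tested. The lists were chosen with earlier results of these data known. In the edgeR test 0 of the 132 passed (smallest adjusted p = 0.130), where 0.110% of all genes passed. At an unadjusted p under 0.05, 2 were higher and 14 lower, against 7.56% and 8.70% of all tested genes. Their median log2 fold change was 0.06, beside 0.02 over all tested genes. With DESeq2, 5 of the 132 were lower and 0 higher, against 2.51% and 1.18% of all genes with an adjusted p: the pattern receptor genes Clec4e and Clec4d, the adaptor Bcl10, the transcription factor Cebpb and the interferon gamma receptor chain Ifngr2.

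**Figure D4:**
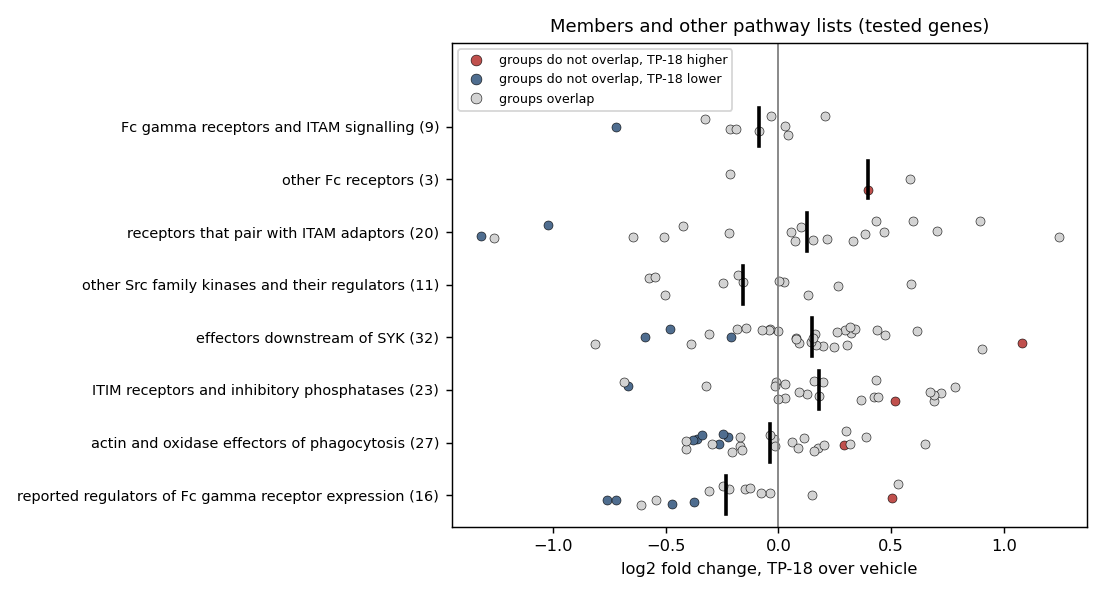
Log2 fold change of TP-18 over vehicle (x axis) for the tested genes of each list (number of tested genes in brackets); vertical bars are list medians, and colour shows whether all TP-18 libraries lay beyond all vehicle libraries. The median is -0.09 for the Fc gamma receptor and ITAM genes and -0.23 for the reported regulators of Fc gamma receptor expression.

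The list of receptors that pair with ITAM adaptors split into lower and higher members. It also holds Hcst, which encodes the adaptor DAP10 and not a receptor, and the scavenger receptor gene Msr1. Of 20 tested, 7 were negative and 13 positive on the log2 scale (median 0.13). The groups did not overlap in 2, Clec4e and Hcst, both lower, where 11.7% of all tested genes were lower without overlap. Clec4e, which encodes Mincle and signals through the Fcer1g chain, had 149.98, 244 and 215 CPM in TP-18 1, 2 and 3, against 259, 561 and 701 CPM in vehicle 1, 2 and 3. All TP-18 libraries lay below all vehicle libraries. For Clec4e the log2 fold change was -1.32 ± 0.36 (edgeR adjusted p = 0.194; DESeq2 adjusted p = 0.00642). Clec4d, a related receptor in the same gene family, had 86.0 ± 27.8 CPM in TP-18 and 206 ± 105 CPM in vehicle libraries (edgeR adjusted p = 0.238). Of the other Fc receptors only 3 of 12 had enough counts to be tested. Fcgrt, the neonatal Fc receptor that recycles IgG, had 125 ± 18.1 CPM in TP-18 and 145 ± 32.0 CPM in vehicle libraries (edgeR adjusted p = 0.611). Trim21, a cytosolic IgG receptor, had 11.8 ± 0.512 CPM in TP-18 and 8.998 ± 2.39 CPM in vehicle libraries (edgeR adjusted p = 0.450).

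Kinases beside Lyn and effectors downstream of SYK gave no call by edgeR. Of 11 Src family kinases and regulators, 6 were negative on the log2 scale (median -0.16). Ptprc, which encodes CD45, had 210.4 ± 80.4 CPM in TP-18 and 210.1 ± 86.4 CPM in vehicle libraries. Of 32 SYK effectors, 20 were positive on the log2 scale and the median was 0.15. Bcl10, an adaptor that links SYK to NF-kB through CARD9, had 98.6, 87.2 and 78.7 CPM in TP-18 1, 2 and 3, against 126, 137 and 135 CPM in vehicle 1, 2 and 3. The groups did not overlap, with a log2 fold change of -0.59 ± 0.13 (edgeR adjusted p = 0.150, DESeq2 adjusted p = 0.0118). Of the 32 effectors, 3 were lower and 1 higher without overlap, where 11.7% and 11.6% of all tested genes did so. Skap2, an adaptor of Src family kinases, had 85.8 ± 7.14 CPM in TP-18 and 81.3 ± 8.59 CPM in vehicle libraries (edgeR adjusted p = 0.805).

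Among the inhibitory receptors and phosphatases 17 of 23 tested genes were positive on the log2 scale and the median was 0.18. The most abundant per length, Lilrb4a, an ITIM receptor of myeloid cells, had lower values in TP-18 libraries, with 406, 422 and 634 CPM in TP-18 1, 2 and 3, against 762, 664 and 895 CPM in vehicle 1, 2 and 3. All TP-18 libraries lay below all vehicle libraries, and the log2 fold change was -0.67 ± 0.21 (edgeR adjusted p = 0.224). In this list 1 gene was lower and 1, Dok1, higher without overlap, where 11.7% and 11.6% of all tested genes did so. Lilrb4a has a close paralog, so its count is uncertain. Clec4a1 had 79.6 ± 21.7 CPM in TP-18 and 74.7 ± 18.1 CPM in vehicle libraries (edgeR adjusted p = 0.879). In the list of actin and oxidase genes used in phagocytosis, 16 of 27 were negative with a median of -0.04, and the groups did not overlap in 7 genes, 6 lower and 1 higher, where 11.7% and 11.6% of all tested genes did so. Arpc2, a subunit of the ARP2/3 complex, had 572 ± 12.5 CPM in TP-18 and 669 ± 58.6 CPM in vehicle libraries (edgeR adjusted p = 0.425). Cyba, a subunit of the phagocyte NADPH oxidase, had 256 ± 32.3 CPM in TP-18 and 324 ± 14.6 CPM in vehicle libraries (edgeR adjusted p = 0.296).

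For genes reported to control Fc gamma receptor expression the median was -0.23 on the log2 scale, with 13 of 16 negative. At an unadjusted edgeR p under 0.05, 4 of the 16 were lower and 0 higher, against 8.70% and 7.56% of all tested genes. Cebpb had 183, 208 and 188 CPM in TP-18 1, 2 and 3, against 354, 311 and 287 CPM in vehicle 1, 2 and 3, a log2 fold change of -0.72 ± 0.14 (edgeR adjusted p = 0.130; DESeq2 adjusted p = 0.000755). The groups were far apart relative to their spread. Spi1, which encodes PU.1, had 108 ± 33.2 CPM in TP-18 and 157 ± 32.3 CPM in vehicle libraries (edgeR adjusted p = 0.334). Ifngr2, chosen for naming after its DESeq2 call was seen, had 37.3 ± 7.48 CPM in TP-18 and 63.2 ± 10.3 CPM in vehicle libraries (edgeR adjusted p = 0.169; DESeq2 adjusted p = 0.0259). With library totals as scaling, all of these values would shift upward in TP-18 libraries by about the 0.18 by which the median of all genes shifted.

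Markers of mast cells, which use Fcer1g, Lyn and Syk with the IgE receptor, were scarce. The mast cell, basophil and eosinophil list summed to 29.0 to 67.8 CPM in TP-18 and 30.2 to 53.1 CPM in vehicle libraries, mostly Gata2, which blood progenitors also express, at 24.8 ± 7.76 CPM in TP-18 and 31.4 ± 11.2 CPM in vehicle libraries. Of its 11 genes 6 were tested. The mast cell proteases Cma1, Cpa3 and Mcpt4 were scarce in vehicle libraries and passed the count filter through the TP-18 libraries. Prg2, at 0.163 ± 0.144 CPM in TP-18 and 1.45 ± 1.53 CPM in vehicle libraries, had too few counts to be tested. The signs and overlap of the tested genes are shaped by this filter and are not counted here. Cma1 had 3.49 ± 1.33 CPM in TP-18 and 0.126 ± 0.123 CPM in vehicle libraries. Cpa3 had 3.76 ± 2.97 CPM in TP-18 and 0.166 ± 0.176 CPM in vehicle libraries. Both were chosen after their values were seen. Tpsb2, a mast cell protease, had 7.61 ± 4.52 CPM in TP-18 and 1.25 ± 1.36 CPM in vehicle libraries, with 0.126 CPM in vehicle 2. No p is given for Cma1, Cpa3 or Tpsb2, as the filter also shapes their tests. The defining genes Fcer1a and Ms4a2, which encode the other chains of the IgE receptor, had at most 16 and 13 counts in a library, and Ms4a2 was at 0 in all 3 vehicle libraries. The fibroblast and pericyte list summed to 1508 to 1880.01 CPM in TP-18 and 748 to 1214 CPM in vehicle libraries, without overlap, and 10 of its 10 genes had positive log2 fold changes. The part of these cells in the values of the 9 genes was not tested.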

How the data were processed

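RNA sequencing of 3 TP-18 and 3 vehicle libraries was analysed. The authors deposited raw counts per gene. They also deposited FPKM, which for each gene equal its count over the library total and a single length. The tools named are fastp, HISAT2 and HTSeq on GRCm38, per the submitters' processing notes, without versions or settings. Counts were tested with edgeR 4.0.16 (R 4.3.3) on genes kept by filterByExpr (minimum count 10, minimum total 15), with TMM factors, without covariates, two-sided, adjusted by Benjamini-Hochberg over all 12721 tested genes; intervals use the moderated degrees of freedom. CPM use TMM-scaled library sizes. The test was checked on simulated counts with known differences. At 4-fold it recovered 57 of 66 such genes. At 2-fold it recovered 23 of 67, and at 1.5-fold only 2 of 67. It thus missed most differences of 2-fold or less, and 0 calls among the 9 genes does not show that they are unchanged. Alternatives were other scalings and filters, DESeq2 1.42.0, limma 3.58.1 on voom values and on log2(FPKM + 1) and log2(FPKM + 0.1), a replicate block and each library left out. Intervals and counts are limited by 3 libraries per group; counts between libraries differed by more than sampling noise, so none was merged. The 9 genes and all lists were chosen with earlier results of these data known. Of each pathway list, genes past the threshold were to be named, otherwise the 2 most abundant per length; other genes named were chosen after their values were seen, and some genes and motifs that the rules name are not reported here. Coding sequences and positions came from GENCODE M21 and promoters from RefSeq (GRCm38.p6). Motifs were searched in coding sequence, in place of the planned protein search; protein sequences were not used here.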

Additional observations from a re-analysis of the deposited data

How the results depend on the processing

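In the edgeR fit 3 genes were higher and 11 lower over the whole table. These counts were 160 and 339 with DESeq2, 7 and 20 without a filter, 1 and 1 with either limma fit on FPKM, 3 and 1 with library totals, and 0 to 3 higher and 0 to 5 lower with each library left out. In all 15 alternatives 0 of the 9 members passed in either direction, and of the pathway lists DESeq2 called 5 genes lower and the others 0. The replicate block gave 3 genes higher and 0 lower, and 0 members; the correlation of deviations between libraries of the same number was 0.16, 0.39 and -0.15 for numbers 1, 2 and 3, and TP-18 3 correlated best with vehicle 1, so the numbers were not taken as pairs. Fcgr1, Fcer1g, Tyrobp, Syk and Lyn kept the sign of their log2 fold change in all 15 alternatives, though some values were very small. The ranges were 0.044 to 0.39 for Fcgr1, -0.41 to -0.039 for Fcer1g, -0.59 to -0.15 for Tyrobp and -0.42 to -0.011 for Lyn. Syk ran from -0.92 to -0.41 (adjusted p = 0.133 with DESeq2 to 0.632 without TP-18 1). The cause of these shifts was not tested. Fcgr3 turned to 0.15 with library totals and to 0.14 with either limma fit on FPKM. Fcgr4 turned to 0.083 with library totals and to 0.12 with either limma fit on FPKM. FPKM also use library totals, with which the median of all tested genes shifted by 0.18 in the edgeR fit. With each library left out, Fcgr2b ran from -0.38 to 0.27, Fcgr3 from -0.13 to 0.040, Fcgr4 from -0.45 to 0.32 and Inpp5d from -0.29 to 0.23. The ratio of activating receptors to Fcgr2b was 1.27 in TP-18 and 1.29 in vehicle libraries with CPM, and 1.24 in TP-18 and 1.28 in vehicle libraries with M21 lengths (an alternative added after seeing the data); with each library left out it was 0.817 to 0.976 in TP-18 and 0.756 to 0.984 in vehicle libraries.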

Other observations

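The tables carry pathway terms of their own, examined after the values of the 9 genes were seen. The deposited term for Fc gamma receptor-mediated phagocytosis held 92 genes, 6 of them among the 9 (Fcgr1, Fcgr2b, Fcgr4, Syk, Lyn and Inpp5d), and 85 were tested. By edgeR the smallest adjusted p of the 85 was 0.137, 45 had positive and 40 negative log2 fold changes, and their median of 0.02 equalled that of all tested genes. At an unadjusted p under 0.05, 8 were higher and 10 lower, against 7.56% and 8.70% of all tested genes. The smallest p belonged to Marcksl1, which encodes an actin-binding substrate of protein kinase C, with 199 ± 52.1 CPM in TP-18 and 448 ± 93.7 CPM in vehicle libraries (SD, n = 3 each; edgeR adjusted p = 0.137). The next smallest p belonged to 3 genes with higher values in TP-18 libraries. Asap3 had 2.15 ± 0.802 CPM in TP-18 and 0.531 ± 0.0882 CPM in vehicle libraries. It was scarce in vehicle libraries and passed the count filter through the TP-18 libraries, which shapes its place in this order, so its p is not given. Asap2, like Asap3 an ARF GTPase-activating protein gene, had 49.0 ± 6.95 CPM in TP-18 and 33.7 ± 2.59 CPM in vehicle libraries (edgeR adjusted p = 0.195). Pik3r2, a regulatory subunit of PI3-kinase, had 75.1 ± 7.70 CPM in TP-18 and 52.8 ± 6.70 CPM in vehicle libraries (edgeR adjusted p = 0.208).

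The terms for IgE receptor signalling (57 tested genes), B cell receptor signalling (74 tested genes) and natural killer cell cytotoxicity (99 tested genes) each hold 4 of the 9 genes. At an unadjusted edgeR p under 0.05, where 7.56% of all tested genes were higher and 8.70% lower, 4 genes of the IgE receptor term were higher and 7 lower. In the B cell receptor term 3 were higher and 9 lower, and in the cytotoxicity term 8 were higher and 13 lower. The median log2 fold changes of the 3 terms were -0.01, -0.01 and -0.03 in this order, beside 0.02 over all tested genes.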
